A study of Mus musculus with 29 samples.

Results

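The insulin and IGF signalling genes described here were 10 of the 18240 genes in the table: the ligands Igf1 and Igf2, the receptors Insr, Igf1r and Igf2r, the receptor substrates Irs1 and Irs2, and the binding proteins Igfbp2, Igfbp4 and Igfbp5. They were taken by name, and the group was built around Irs2, which was selected on its measured levels in the 4 genotype and treatment groups after results of these data were known. Therefore every difference between those groups is given below as a description and supports nothing by itself. Sex played no part in the choice, and the comparisons of females with males were therefore tested. All 10 genes passed the filter on low values.

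The libraries were made from prefrontal cortex of C57BL/6J mice at postnatal day 40. Heterozygous mice (HT) carried 1 Tbr1 allele with the K228E change (Tbr1+/K228E), and wild-type mice (WT) carried none. Tbr1 encodes a transcription factor that projection neurons of the deep cortical layers need. The 4 groups, called arms here, were WT mice given vehicle (4 females, 4 males), HT mice given vehicle (3 and 3), HT mice given fluoxetine (4 and 4) and HT mice given lithium (3 females, 4 males). Fluoxetine is a serotonin reuptake inhibitor, and lithium is a mood stabiliser that inhibits the kinase GSK-3. Wild-type mice with fluoxetine or lithium were not analysed here, so a drug difference is one within HT mice, and a difference between a drug arm and WT joins genotype and drug. The labels used here give no dose, route or length of treatment and do not state how mice were divided over litters, so p-values measure the spread between these libraries.

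Insulin and the IGFs bind receptor tyrosine kinases, Insr and Igf1r, which phosphorylate the adaptor proteins Irs1 and Irs2 and through them turn on PI3K, Akt and mTOR. Akt keeps the FoxO factors out of the nucleus, and FoxO factors raise transcription of Irs2, a loop described best in liver, where Irs2 is high when insulin is low. Igf2r takes Igf2 up for degradation, and the binding proteins hold IGFs outside the cell and set how much reaches a receptor. In brain, Igf2 is made mainly by the meninges and choroid plexus, while Igf1 comes from some neurons and from microglia.

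The values were reads normalised for library depth. Library depth, taken as the reads recovered from these values and summed over the 18240 genes, ranged from 22808894 to 31711931. Tbr1 itself (chr2:61802930-61814114, GRCm38) was higher in HT vehicle than in WT vehicle, at 4067 ± 392 (SD, n = 6) against 2866 ± 445 (SD, n = 8). An allele that changes an amino acid need not change the amount of RNA, so this level does not check the genotype labels. All 13 excitatory neuron markers and all 15 interneuron markers had reads in every library, as did all 13 astrocyte and all 13 microglial markers. The striatal and olfactory markers differed between libraries, and whether the dissection did was not tested. In 8 of the 29, the mean of the striatal markers (6 libraries) or olfactory markers (2 libraries) lay more than 1 log2 unit above that of the median library. These 8 were 2 WT females, 1 WT male, 2 fluoxetine females, 2 fluoxetine males and 1 lithium female. The olfactory markers also lay more than 1 log2 unit below the median library in 5 libraries, of which WT female 1, fluoxetine female 2 and lithium female 2 (-2.09) are among the 8 and lithium males 1 (-1.99) and 3 (-2.55) are not. Differences were recomputed without the 8 and without all 10, and both sets were chosen after the data were seen. In bulk tissue, fewer cells of a type and less RNA per cell cannot be told apart.

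Irs1 and Irs2 are the members closest in role, and their promoters are printed here because Irs2 is a known target of FoxO factors and of E-box factors. RefSeq promoter windows (GRCm38.p6) were found for 9 of the 10 genes, and Insr had no entry. The lines give the 250 bases before the annotated start, 5′ to 3′ on the gene's strand. Irs1 is at chr1:82291440-82291689 and Irs2 at chr8:11008930-11009179, both on the minus strand. Capitals mark the E-box CACGTG, which reads the same on both strands, and the letters TGTTTTG, the FoxO-linked insulin response element, which was also searched as CAAAACA on the other strand.
Irs1: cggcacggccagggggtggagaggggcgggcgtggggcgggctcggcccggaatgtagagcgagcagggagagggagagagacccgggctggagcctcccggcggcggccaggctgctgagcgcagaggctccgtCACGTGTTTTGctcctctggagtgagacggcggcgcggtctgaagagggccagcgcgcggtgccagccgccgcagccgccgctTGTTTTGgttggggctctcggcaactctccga
Irs2: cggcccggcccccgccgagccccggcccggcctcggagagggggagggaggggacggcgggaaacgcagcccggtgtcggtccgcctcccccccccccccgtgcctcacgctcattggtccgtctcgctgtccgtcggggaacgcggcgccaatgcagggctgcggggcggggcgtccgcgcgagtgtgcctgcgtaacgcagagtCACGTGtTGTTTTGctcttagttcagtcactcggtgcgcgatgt
The E-box began 44 bases before the start in Irs2, and TGTTTTG followed 37 bases before it. In Irs1 the E-box began 115 bases before the start, a TGTTTTG that shares 2 of its letters began at 111, and another began at 32. These distances are from the RefSeq starts. GENCODE starts Irs2 at chr8:11008458, downstream of the RefSeq start, and from there its motifs lie farther upstream. Of 32851 promoter windows of this length, 6.02% held CACGTG, 5.56% held TGTTTTG on either strand and 0.3% held both. The remaining members with an E-box were Igf2r, with 1 at 48 and 1 at 7 bases before the start, and Igfbp2, with 1 at 142. The cAMP response element TGACGTCA, present in 1.55% of the windows, was in none of the 9 genes' windows. These are matches of letters, chosen after the sequences were seen, and no binding was measured.

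Divided by the length of the longest annotated transcript, the 3 binding proteins and Igf2 had the highest levels and Irs1 and Igf1 the lowest. Igfbp2 averaged 899 ± 111 normalised reads per kb (SD, n = 29), Igfbp5 742 ± 88.2, Igf2 556 ± 99.0 and Igfbp4 460 ± 52.9. Irs2 came next at 333 ± 38.8 normalised reads per kb, above the receptors Insr at 192 ± 11.2, Igf1r at 183 ± 11.5 and Igf2r at 160 ± 9.69. Irs1 had 67.8 ± 11.1 and Igf1 49.1 ± 11.4 normalised reads per kb. Only the steps from Irs2 to Insr and from Igf2r to Irs1 separated neighbours with no overlap between libraries. With the union of all exons as the length, Igfbp5 came before Igfbp2 and Igf2r before Insr and Igf1r.

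**Figure D1:**
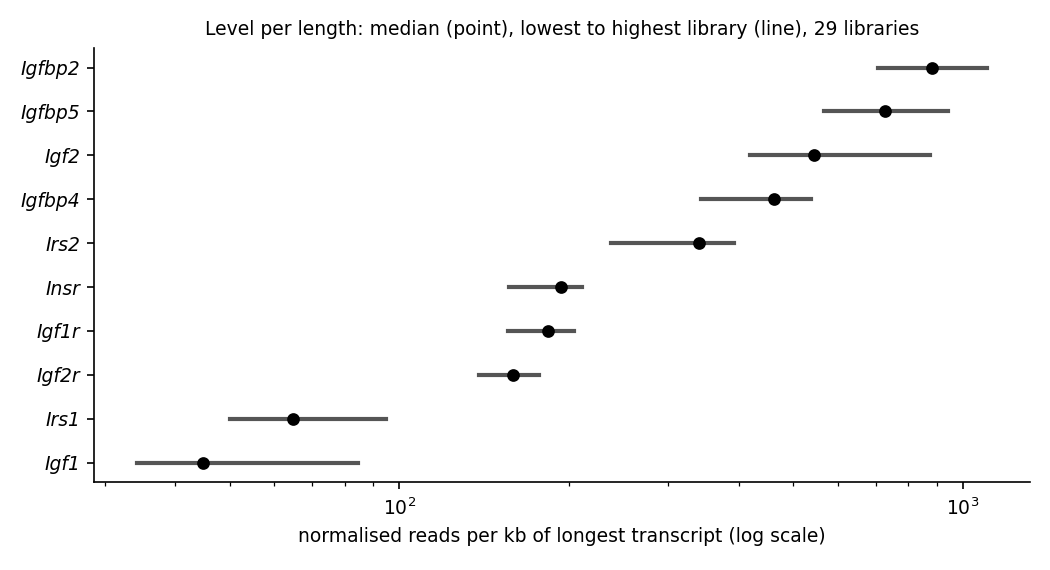
Level per length of the 10 genes. The horizontal axis is normalised reads per kb of the longest transcript on a log scale, points are medians and lines run from the lowest to the highest of the 29 libraries. Irs2 lies above every library of Insr, Igf1r, Igf2r, Irs1 and Igf1.

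Both ligands had their highest median in WT vehicle. Igf1 (chr10:87858265-87937042) had a lowest, median and highest value of 286, 401 and 595 normalised reads in WT vehicle, 242, 310 and 447 in HT vehicle, 282, 299 and 464 in HT fluoxetine, and 250, 309 and 362 in HT lithium. All 4 arms overlapped. The highest library was 1 WT male at 595, and the next WT library had 452. The log2 difference from WT vehicle was -0.28 ± 0.13 (SE) in HT vehicle and -0.26 ± 0.12 in HT fluoxetine, and it was -0.37 ± 0.13 in HT lithium, and over both sexes none passed the threshold of the fit.

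Igf2 (chr7:142650766-142666816) ranged from 2354 to 4120 normalised reads in WT vehicle with a median of 2945, and its median was 2415 in HT vehicle (2101 to 2727), 2605 in HT fluoxetine (2151 to 3189) and 2320 in HT lithium (1981 to 3103). The arms overlapped, and the highest value was again in 1 WT male. Against WT vehicle the log2 difference was -0.31 ± 0.11 in HT vehicle and -0.21 ± 0.10 in HT fluoxetine, and it was -0.36 ± 0.10 in HT lithium. None passed the threshold with limma, while DESeq2 on the recovered reads called the last, as did limma without lithium male 1 or without WT male 4 (-0.42 in both). Exons of Igf2 overlap those of the antisense gene Igf2os, which had 10.1 to 14.5 normalised reads on average in the 4 arms, and those of Gm49394 on the same strand.

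The receptors varied least. Insr (chr8:3122061-3279617) spanned 1.35-fold from its lowest to its highest library, Igf1r (chr7:67952827-68233668) 1.31-fold and Igf2r (chr17:12682406-12769664) 1.28-fold, against 2.47-fold for Igf1 and 2.08-fold for Igf2. Insr had a median of 1847 normalised reads in WT vehicle, 1789 in HT vehicle and 1816 in HT fluoxetine, and its median in HT lithium was 1761. Igf1r had medians of 2077, 2067, 2119 and 2068 in the same order. For Igf2r these medians were 1440, 1484, 1412 and 1358, and HT lithium differed from HT vehicle by -0.11 ± 0.045 (log2, SE). No receptor passed the threshold in any comparison, and their arms overlapped throughout.

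**Figure D2:**
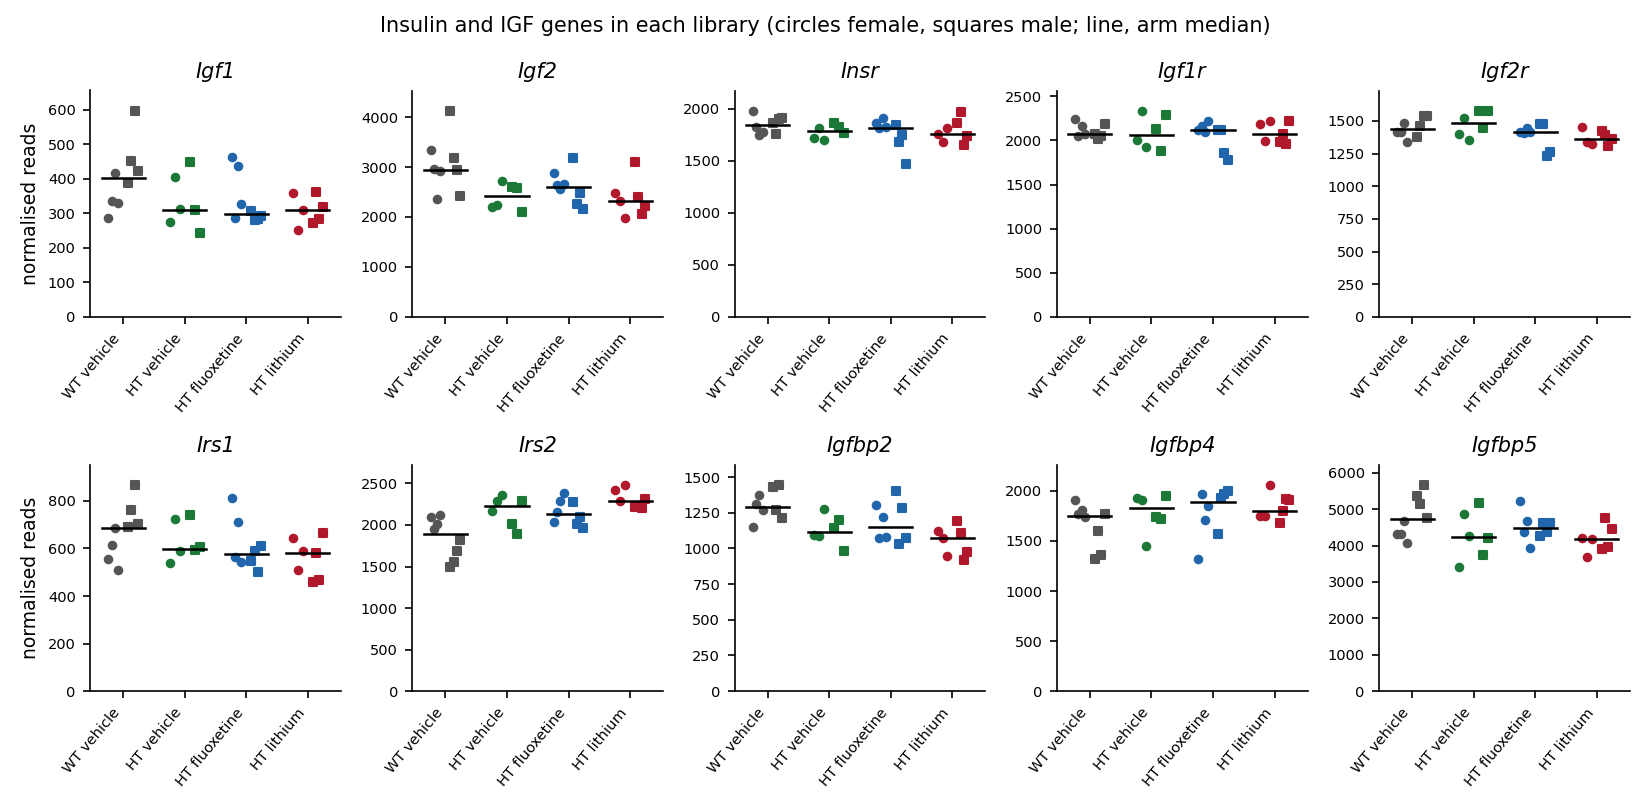
All 10 genes in the 29 libraries. The vertical axes give normalised reads from 0, circles are females, squares males, and lines are arm medians. Irs1, Igf1, Igf2, Igfbp2, Igfbp5 and Insr have their highest medians in WT vehicle and Irs2 and Igfbp4 their lowest, while the 3 receptors span less than the other genes.

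Of the 2 substrates, Irs2 was higher in each HT arm than in WT vehicle. Irs2 (ENSMUSG00000038894, chr8:10984681-11008458, minus strand) had a lowest, median and highest value of 1499, 1886 and 2120 normalised reads in WT vehicle. The same values were 1885, 2225 and 2358 in HT vehicle, 1963, 2128 and 2386 in HT fluoxetine, and 2210, 2286 and 2477 in HT lithium. All 7 HT lithium libraries lay above all 8 WT libraries, as held for 0.28% of all genes tested, whereas 4 of 6 HT vehicle libraries and 4 of 8 HT fluoxetine libraries did. The log2 difference from WT vehicle was 0.24 ± 0.047 (SE; 1.18-fold) in HT vehicle and 0.23 ± 0.044 (1.18-fold) in HT fluoxetine, and it was 0.34 ± 0.046 (1.27-fold) in HT lithium. These 3 differences share the WT libraries.

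Within HT mice the arms overlapped for Irs2. HT fluoxetine differed from HT vehicle by -0.0074 ± 0.047 (log2, SE), HT lithium from HT vehicle by 0.10 ± 0.049 and HT lithium from HT fluoxetine by 0.11 ± 0.046. None of these passed the threshold. An exon of Irs2 overlaps one of 9530052E02Rik on the opposite strand, a transcript with 13.9 to 15.7 normalised reads on average in the 4 arms, and reads of the pair cannot be told apart if strand was not used in counting.

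Irs1 (chr1:82233101-82291416, minus strand), the other substrate, had medians of 687 normalised reads in WT vehicle (510 to 866), 600 in HT vehicle (540 to 741), 578 in HT fluoxetine (501 to 813) and 583 in HT lithium (459 to 664). Its log2 difference from WT vehicle was -0.081 ± 0.10 in HT vehicle and -0.14 ± 0.093 in HT fluoxetine, and it was -0.25 ± 0.097 in HT lithium. The arms overlapped, and over both sexes no difference passed the threshold.

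**Figure D3:**
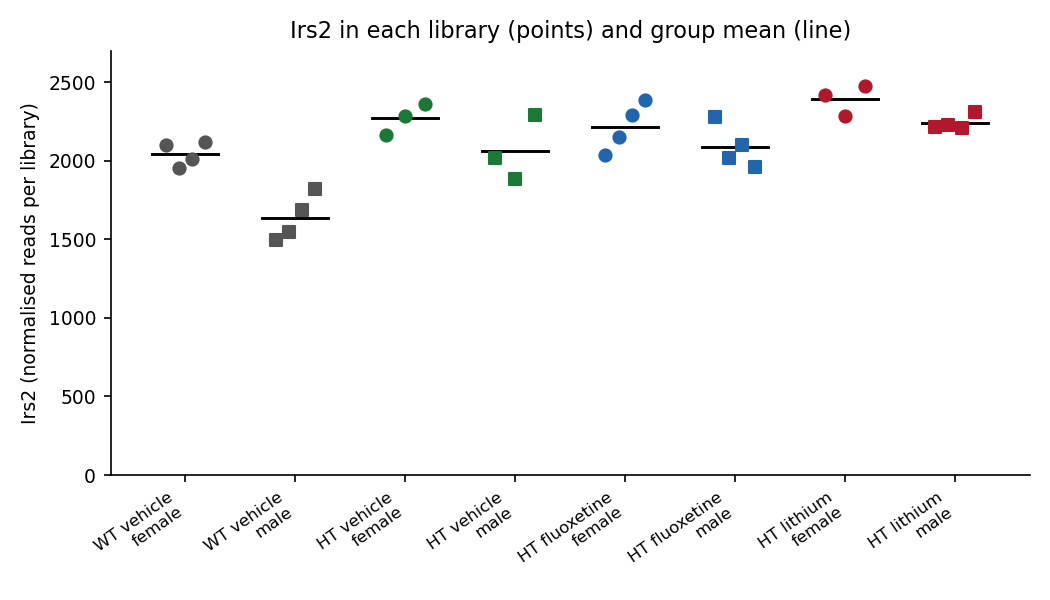
Irs2 in each library. The vertical axis gives normalised reads from 0, points are libraries (circles female, squares male) of the 8 groups and lines are group means. The 4 WT males, between 1499 and 1817, lie below all other libraries, and the 7 HT lithium libraries lie above all WT libraries.

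Among the binding proteins, Igfbp2 (chr1:72824503-72852474) was called lower than in WT vehicle in HT lithium; in HT vehicle and HT fluoxetine it was not called, and a difference among the HT arms was not shown. Its median was 1293 normalised reads in WT vehicle (1152 to 1443), 1118 in HT vehicle (986 to 1274), 1148 in HT fluoxetine (1032 to 1405) and 1075 in HT lithium (922 to 1194). In HT lithium, 6 of 7 libraries lay below all WT libraries. The log2 difference from WT vehicle was -0.21 ± 0.076 in HT vehicle and -0.15 ± 0.070 in HT fluoxetine, and it was -0.32 ± 0.073 (SE) in HT lithium.

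Igfbp4 and Igfbp5 pointed in opposite directions. Igfbp4 (chr11:99041244-99054392) had medians of 1752, 1825, 1889 and 1801 normalised reads in WT vehicle, HT vehicle, HT fluoxetine and HT lithium, with log2 differences from WT of 0.11 ± 0.084, 0.11 ± 0.078 and 0.16 ± 0.081. Igfbp5 (chr1:72857932-72874884), the neighbour of Igfbp2 on the opposite strand, had medians of 4721, 4233, 4498 and 4173 in the same order, with log2 differences of -0.17 ± 0.076, -0.083 ± 0.070 and -0.20 ± 0.073. The arms of both genes overlapped and neither passed the threshold.

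In the fit over all 17881 genes tested (limma, Benjamini-Hochberg adjusted p below 0.05), Irs2 was the 1 member called between HT and WT vehicle, where 0.207% of all genes were called, and the 1 member called between HT fluoxetine and WT vehicle, where 0.19% were. Between HT lithium and WT vehicle, Irs2 was called higher and Igfbp2 lower, and 1.9% of all genes were called. No member was called for fluoxetine, for lithium or for lithium against fluoxetine within HT mice, where 0% of all genes were called. In those 3 comparisons limma called 0 genes, with 1397, 2030 and 626 at an unadjusted p below 0.05, edgeR called 0, and DESeq2 called 0 genes higher and 2 lower, 24 and 8, and 1 and 1. Between HT lithium and WT, 8 of the 10 members were lower, with a median log2 difference of -0.14 over the members and -0.0046 over all genes tested. Since these contrasts chose the group, nothing is read from the counts.

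Split by sex, the calls between a drug arm and WT vehicle were in males. In HT fluoxetine, Irs2 differed from WT by 0.35 ± 0.062 (log2, SE) in males, which was called, and by 0.11 ± 0.062 in females, which was not, and Igf1 by -0.66 ± 0.17 in males (called) and 0.13 ± 0.17 in females (not called). Among all genes 3.88% were called in males and 0.0391% in females. In HT lithium, Irs2 differed from WT by 0.46 ± 0.062 in males (called) and 0.23 ± 0.067 in females (not called), Irs1 by -0.49 ± 0.13 in males (called) and -0.022 ± 0.14 in females (not called), and Igfbp2 by -0.35 ± 0.099 in males (called) and -0.29 ± 0.11 in females (not called), where 3.46% and 0% of all genes were called. In HT vehicle neither sex had a called member, and 0% of all genes were called in both. In the female lithium comparison and in the female and male vehicle comparisons limma called 0 genes, with 1021, 1333 and 1990 at an unadjusted p below 0.05. All male comparisons share the 4 WT males, whose olfactory marker means lay 0.57 to 1.42 log2 units above the median library. These means were 0.92, 0.23 and 0 in the HT vehicle males and -0.61, -0.08, -0.88 and 0.30 in the fluoxetine males. In the 4 lithium males they were -1.99, -0.03, -2.55 and 0.26. The part of these markers in the male calls was not tested.

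In each drug arm 13 of the 14 olfactory markers were lower than in WT vehicle, against 8 in HT vehicle, and the arms overlapped. The mean of these markers ranged from -2.55 to 0.57 log2 units from the median library in HT lithium and from -1.53 to 1.42 in WT vehicle. Between HT and WT vehicle, 6 were higher and 8 lower, with a median log2 difference of -0.076. Between HT fluoxetine and WT, 1 was higher and 13 lower, with a median of -0.46. Of the 14, 13 were lower in HT lithium than in WT, with a median log2 difference of -1.12, and 11 had an unadjusted p below 0.05 though none was called. All 16 striatal markers were higher in HT fluoxetine than in WT (median 0.57) and than in HT vehicle (0.73), and none was called. Against WT, 3 of the 16 were higher in HT vehicle (median -0.22) and 8 in HT lithium (0.041). Without the 8 libraries the difference between HT lithium and WT was -0.14 for Irs1, -0.22 for Igf1 and -0.13 for Igfbp5, and without the 10 it was -0.034, -0.15 and -0.073. With the striatal and olfactory means as covariates it was -0.052, -0.15 and -0.084, and none of these was called.

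Without the 8 libraries with high striatal or olfactory markers, the log2 difference of Irs2 was 0.25 for HT vehicle, 0.27 for HT fluoxetine and 0.37 for HT lithium against WT vehicle, and only the last was still called. Igfbp2 was then 0.32 lower on the log2 scale in HT lithium and no longer called. Without the 10 the Irs2 differences were 0.25, 0.27 and 0.38, again with the last alone called, and that of Igfbp2 was -0.32 and not called. With the striatal and olfactory means as covariates, the Irs2 differences were 0.24, 0.24 and 0.33, all called, and that of Igfbp2 was -0.29 and not called. Leaving out single libraries ended the Irs2 call between HT and WT vehicle in 7 of 14 cases (each of HT females 1 and 3, HT males 1 and 3, WT females 2 and 3 and WT male 1), with differences of 0.20 to 0.26. It also ended with only the compared groups in the fit or with sex as an additive term (0.24 in both). For HT fluoxetine the call ended without fluoxetine female 4 (0.22) or WT female 2 (0.22), or with only the compared groups (0.23), and for HT lithium it held in all 15 cases. The Igfbp2 call ended in 5 of 15, without lithium female 3 or male 3, WT female 3, or WT male 1 or 3, with differences of -0.28 to -0.30 in those fits.

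**Figure D4:**
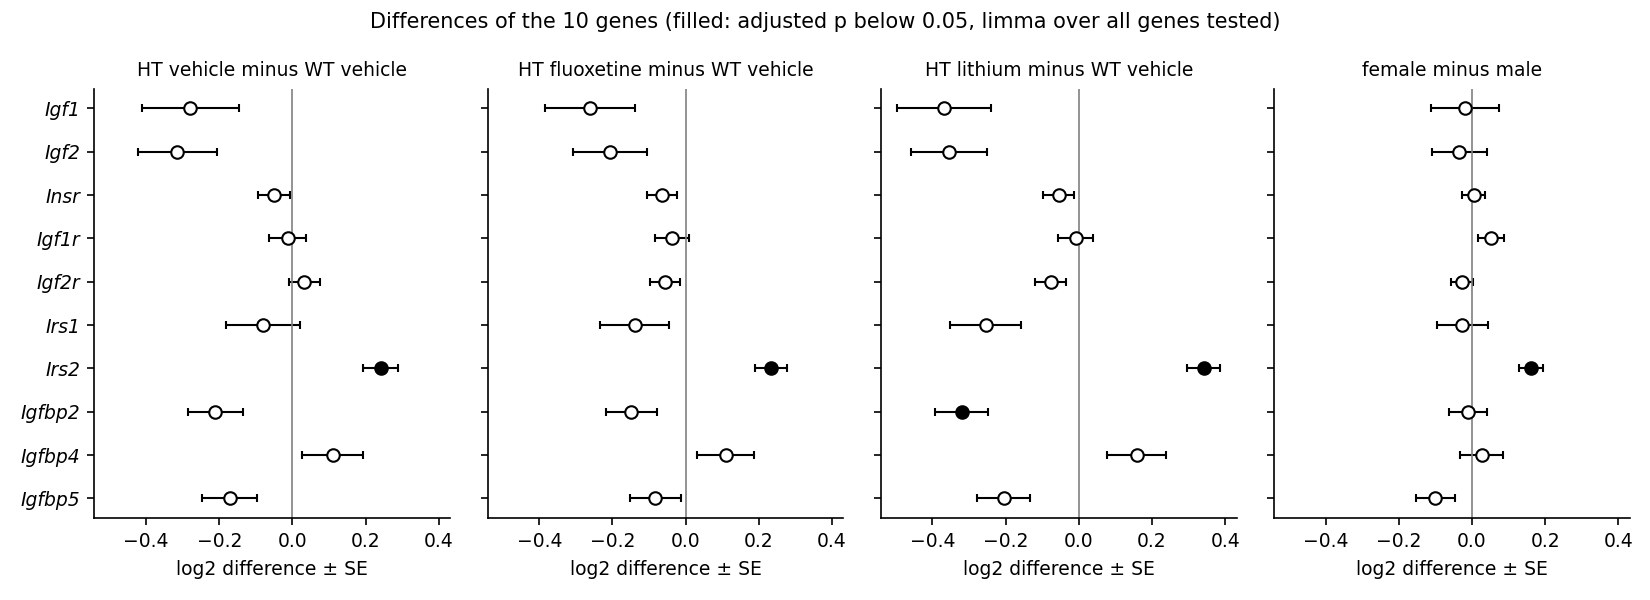
Log2 differences of the 10 genes in 4 comparisons. Points are estimates, bars are 1 SE, and filled points passed an adjusted p of 0.05 over all genes tested with limma. Irs2 is filled in all 4 panels and Igfbp2 in the panel for HT lithium.

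Females had more Irs2 than males, a difference that was called over the 4 arms but not over the HT arms alone. The log2 difference, averaged over the 4 arms, was 0.16 ± 0.033 (SE; 1.12-fold; adjusted p = 0.0273, limma), and 0.257% of all genes were called for sex. Irs2 was the 1 member called, and the differences of the other 9 lay between -0.10 for Igfbp5 and 0.052 for Igf1r. In WT vehicle the females had 2099, 1954, 2011 and 2120 normalised reads of Irs2 and the males 1499, 1550, 1684 and 1817. All 4 females lay above all 4 males, and the log2 difference there was 0.32 ± 0.062 (1.25-fold; adjusted p = 0.0172, limma). Within WT vehicle, 0.252% of all genes were called for sex, 17.7% had an unadjusted p below 0.05, and in 7.55% the 4 females and the 4 males did not overlap.

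In the HT arms the sexes overlapped. HT vehicle females had 2167, 2283 and 2358 normalised reads of Irs2 and males 2016, 1885 and 2292, a log2 difference of 0.14 ± 0.072. In HT fluoxetine the females had 2038, 2153, 2294 and 2386 and the males 2279, 2015, 2102 and 1963, a difference of 0.085 ± 0.062. HT lithium females had 2417, 2286 and 2477 and males 2216, 2226, 2210 and 2312, a difference of 0.094 ± 0.067. Over the 3 HT arms alone the difference was 0.11 ± 0.039 and was not called (adjusted p = 0.749, limma; 0.123% of all genes called), so the call for sex was lost without the WT libraries. It was also lost without the 10 libraries (0.20, adjusted p = 0.13, limma), without the intensity trend (0.16, adjusted p = 0.0569, limma) and in 12 of 29 fits that left out 1 library, with differences of 0.15 to 0.16: fluoxetine females 3 and 4 and male 2, lithium females 1 and 3, HT vehicle females 2 and 3 and males 1 and 2, and WT females 1 and 4 and male 2.

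Seen from the other side, HT vehicle differed from WT vehicle in Irs2 by 0.33 ± 0.067 (log2, SE) in males and 0.15 ± 0.067 in females. The difference between these, the interaction of sex and genotype, was -0.18 ± 0.095 (unadjusted p = 0.0636, adjusted p = 0.847, limma), so a difference between the sexes was not shown. No member was called in the interaction of sex with genotype, with fluoxetine or with lithium, where 0%, 0.106% and 0% of all genes were called. For genotype and lithium, limma called 0 genes with 1001 and 523 at an unadjusted p below 0.05, edgeR called 0 in both, and DESeq2 called 1 and 0.

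The interactions of sex with the difference between a drug arm and WT vehicle were tested too, females minus males. For HT fluoxetine they were -0.24 ± 0.088 for Irs2 (adjusted p = 0.106), 0.57 ± 0.19 for Irs1 (adjusted p = 0.077) and 0.79 ± 0.25 for Igf1 (adjusted p = 0.0638, limma), and 3.55% of all genes were called. For HT lithium they were -0.23 ± 0.091 for Irs2 and 0.46 ± 0.19 for Irs1 (both adjusted p = 0.607), 0.42 ± 0.26 for Igf1 (adjusted p = 0.642) and 0.069 ± 0.15 for Igfbp2 (adjusted p = 0.909, limma), and 0% of all genes were called, with 1459 at an unadjusted p below 0.05. No member passed in either, so a difference between the sexes was not shown for the male calls above.

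Irs1 and Igfbp5 also separated the sexes within WT vehicle, in the opposite direction from Irs2, as 7.55% of all genes did in 1 direction or the other. Irs1 had 556, 613, 684 and 510 normalised reads in WT females and 690, 761, 866 and 701 in WT males, a log2 difference of -0.35 that was not called (adjusted p = 0.172, limma). Igfbp5 had 4326, 4328, 4676 and 4077 in WT females and 5359, 5134, 5657 and 4767 in WT males, a difference of -0.26 that was not called (adjusted p = 0.175, limma). Markers moved with sex in this arm. The mean of the 14 olfactory markers was -1.53, 0.05, 0.81 and -0.79 log2 units from the median library in the 4 WT females and 0.57, 0.71, 1.42 and 0.63 in the 4 males. The mean of the 13 excitatory neuron markers was 0.081, -0.10, -0.12 and -0.03 in the females and -0.36, -0.17, -0.42 and -0.047 in the males. With the striatal and olfactory means as covariates the sex difference of Irs2 over all arms was 0.16 and called. Without the 8 libraries it was 0.20 and called, and without the 10 it was 0.20 and not called. These fits were not made for the sex difference within WT vehicle, so its call was not checked in this way. The part of the excitatory neuron markers was not tested.

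Several members followed the cell type markers of their library. Since the members were chosen on the arms, relations over the 29 libraries were tested on deviations from the 8 group means, with values permuted within each group, and r over the libraries is a description that also holds differences between groups. Of 110 relations between the 10 genes and 11 marker lists, 24 had an r on deviations with a permutation p below 0.05 after Benjamini-Hochberg adjustment. Igf2 followed the 16 markers of meninges and fibroblasts with r = 0.89 and Spearman's rho = 0.89 over the libraries, and r was 0.88 without the 2 libraries farthest out. On deviations r was 0.94 (adjusted p = 0.000275) and rho 0.94 (adjusted p = 0.000367), with a permutation p of 1e-05 for both, the smallest that 100000 permutations can give. The summed level of these 16 markers ranged from 5811 to 7826 normalised reads in WT vehicle, 5444 to 7211 in HT vehicle, 5650 to 7477 in HT fluoxetine and 5354 to 6965 in HT lithium, and none was at 0 in any library. Between HT lithium and WT, 15 of the 16 were lower, with a median log2 difference of -0.21 beside -0.36 for Igf2, and none was called. Against WT, 14 of the 16 were lower in HT vehicle (median -0.16) and 15 in HT fluoxetine (-0.087), again with none called. Igf2 also followed the 20 endothelial and mural markers on deviations, with r = 0.57 (permutation, adjusted p = 0.0359) and rho 0.56 (permutation, adjusted p = 0.0368). Between HT lithium and WT, 15 of these 20 were lower and 3 were called, where 1.9% of all genes were. All 20 were lower than in WT in HT vehicle (median log2 difference -0.094) and in HT fluoxetine (-0.073), and none was called. A relation of Igf2 to the choroid plexus markers within groups was not shown (r = 0.16, permutation, adjusted p = 0.724). The part of any of these cells in the Igf2 values was not tested.

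Irs1, Igf1 and Igfbp5 followed the olfactory markers. For Irs1 r was 0.91 and rho 0.95 over the libraries, r was 0.91 without the 2 farthest libraries, and on deviations r was 0.91 (permutation p = 1e-05, adjusted p = 0.000275) and rho 0.92 (permutation p = 1e-05, adjusted p = 0.000367). For Igf1 r was 0.77 and rho 0.83, with r = 0.77 without the 2 farthest libraries, and on deviations r was 0.79 (permutation p = 1e-05, adjusted p = 0.000275) and rho 0.83 (permutation p = 1e-05, adjusted p = 0.000367). For Igfbp5 r was 0.70 and rho 0.75, with 0.67 without the 2 farthest, and on deviations r was 0.71 (permutation p = 5e-05, adjusted p = 0.000917) and rho 0.81 (permutation p = 2e-05, adjusted p = 0.00055). These were not the only markers they followed: on deviations Irs1 and Igf1 had r = -0.58 and -0.64 with the excitatory neuron markers (permutation p = 0.00503 and 0.00585, adjusted p = 0.0307 and 0.0339). With the interneuron markers r was 0.60 for Irs1, 0.62 for Igf1 and 0.50 for Igfbp5 (permutation, adjusted p = 0.0359, 0.0269 and 0.0443). Their rho did not pass there (adjusted p = 0.0737, 0.0533 and 0.0737). With the microglial markers r was -0.68 for Irs1 and -0.57 for Igf1 (permutation, adjusted p = 0.00399 and 0.016). Irs1 also had r = -0.57 with the endothelial and mural markers (permutation, adjusted p = 0.0101). Irs1 and Igf1 were also alike, with r = 0.86 over the libraries and 0.81 on deviations, as were Irs1 and Igfbp5, with 0.81 and 0.83. Of the 45 pairs of members, 8 had an adjusted p below 0.05 on deviations with values permuted within groups. The summed olfactory markers ranged from 10174 to 41505 normalised reads in WT vehicle, 12956 to 29343 in HT vehicle, 10768 to 37536 in HT fluoxetine and 8760 to 23881 in HT lithium.

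**Figure D5:**
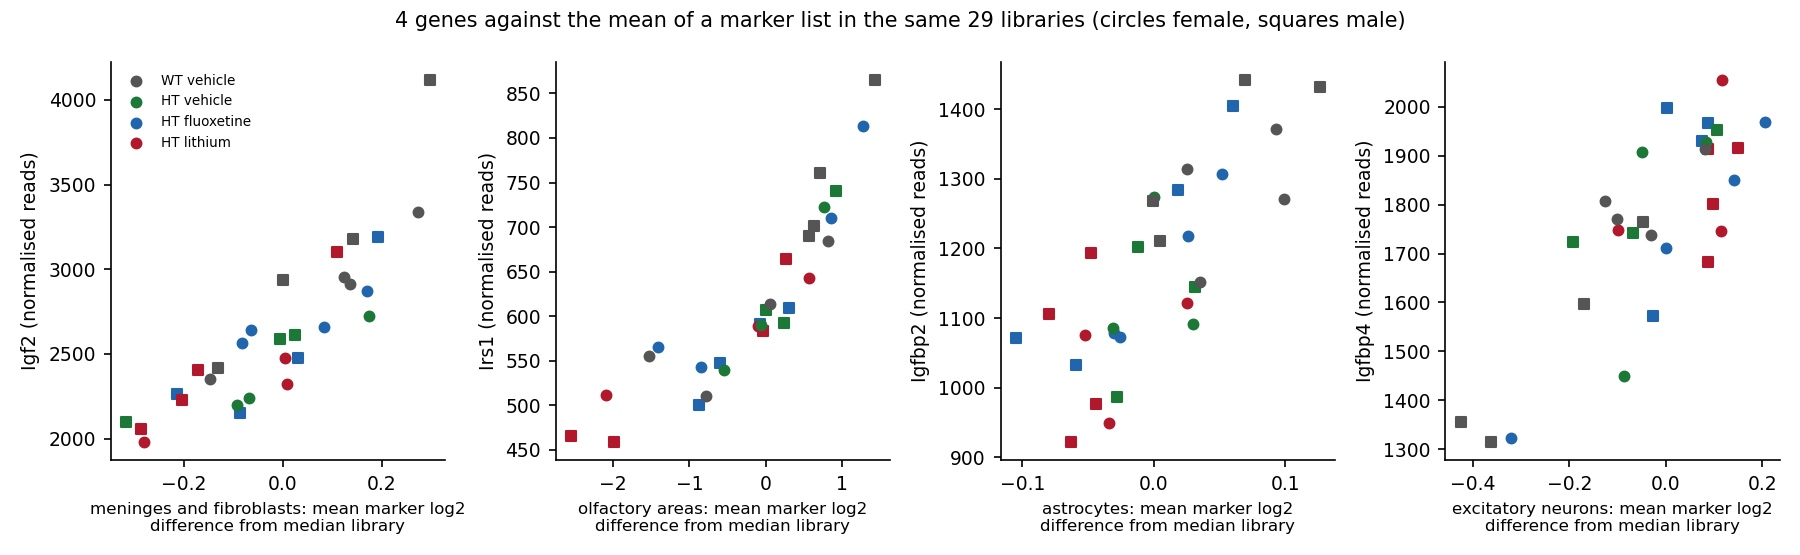
4 genes against marker means in the 29 libraries. Each horizontal axis is the mean log2 difference of a marker list from the median library, each vertical axis normalised reads of the gene (axes do not start at 0), circles are females, squares males. Igf2 follows the markers of meninges and fibroblasts (r = 0.89), Irs1 the olfactory (0.91), Igfbp2 the astrocyte (0.77) and Igfbp4 the excitatory neuron markers (0.83).

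Igfbp2 followed the 13 astrocyte markers (r = 0.77, rho = 0.78 over the libraries), with r = 0.75 without the 2 farthest libraries. On deviations r was 0.67 (permutation p = 0.00179, adjusted p = 0.0159) and rho 0.64 (permutation p = 0.00226, adjusted p = 0.0199). Its r was of like size with other lists, at -0.74 with excitatory neuron markers (-0.69 on deviations, permutation p = 4e-05, adjusted p = 0.00088), 0.70 with meninges and fibroblasts (0.62, permutation p = 0.00294, adjusted p = 0.0216) and 0.62 with choroid plexus (0.49, permutation p = 0.0154, adjusted p = 0.0652). Between HT lithium and WT, 10 of the 13 astrocyte markers were lower, with a median log2 difference of -0.092 beside -0.32 for Igfbp2. Gja1, which encodes the gap junction protein connexin 43, was called lower there at -0.13, where 1.9% of all genes were called. Against WT, 10 of the 13 were also lower in HT vehicle (median -0.054, 1 called higher and 1 lower). In HT fluoxetine 11 of the 13 were lower than in WT (median -0.055, 0 called). Their summed level ranged from 128592 to 149322 normalised reads in WT vehicle and from 130787 to 138145 in HT lithium, and none was at 0 in any library. The part of any of these cells in the Igfbp2 values was not tested. Igf2 and Igfbp2 had r = 0.75 over the libraries and 0.64 on deviations.

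Igfbp4 followed the 13 excitatory neuron markers, with r = 0.83 and rho = 0.68 over the libraries and r = 0.72 without the 2 farthest. On deviations r was 0.81 (permutation p = 1e-05, adjusted p = 0.000275) and rho 0.77 (permutation p = 0.00019, adjusted p = 0.00348). Igfbp4 also had r = -0.66 on deviations with the meninges and fibroblast markers and -0.60 with the astrocyte markers (permutation, adjusted p = 0.00684 and 0.0256). Irs2 had r = 0.68 with the 13 excitatory neuron markers over the libraries and 0.49 without the 2 farthest, which also holds the arm differences by which Irs2 was chosen. On deviations its r was 0.43 (permutation p = 0.0996, adjusted p = 0.25) and rho 0.30 (permutation p = 0.224, adjusted p = 0.453), so a relation within groups was not shown. Tbr1 is 1 of these 13 markers. Their summed level ranged from 133149 to 184928 normalised reads in WT vehicle, 159706 to 184008 in HT vehicle, 141994 to 187514 in HT fluoxetine and 162199 to 189202 in HT lithium. Against WT, 10 of the 13 were higher in HT vehicle (median log2 difference 0.11) and 12 in HT fluoxetine (0.16). In each of these 1 was called, where 0.207% and 0.19% of all genes were. Between HT lithium and WT, 11 of the 13 were higher (median 0.17). Tbr1, Fezf2 and Neurod6, all transcription factors of cortical projection neurons, were called there at 0.63, 0.60 and 0.46 (log2), where 1.9% of all genes were. The part of these neurons in the Irs2 values was not tested.

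The genes whose levels were most like those of Irs2 over the 29 libraries were Jade2, Per2, Gramd1b, Sik2 and Bcor, with r from 0.90 to 0.93 among 12816 genes. Per2 is a core repressor of the circadian clock, and Sik2 is a kinase that holds back CREB coactivators. Per2 had r = 0.92 with Irs2, and its medians were 1204 normalised reads in WT vehicle (977 to 1748), 1527 in HT vehicle (1271 to 2128), 1585 in HT fluoxetine (1289 to 1937) and 1828 in HT lithium (1593 to 2013), with overlap between all arms. On deviations from the 8 group means the closest were Gramd1b, Zbtb4, Jade2, Arhgef7 and Sik2, with r from 0.81 to 0.89. Igf2 was most like Fmod, Col1a1, Cp, Arhgap29 and Col1a2 (r from 0.86 to 0.93). Fmod encodes a proteoglycan that binds collagen, and Col1a1 and Col1a2 encode the chains of type I collagen, and both collagen genes are on the meningeal list. These r values are descriptions, since groups of libraries share genotype and treatment, and the striatal and olfactory markers differ between libraries.

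Other genes of the pathway changed in few places, and the share of all genes called, given again for comparison, was 0.207% between HT and WT vehicle, 0.19% for HT fluoxetine and 1.9% for HT lithium against WT, and 0.257% for sex. Of 11 further ligands, receptors and binding proteins and of 41 adaptors, PI3K subunits and receptor phosphatases, none was called between HT and WT vehicle, HT fluoxetine and WT, HT lithium and WT, or the sexes. The smallest p between HT and WT vehicle in these lists belonged to Igfbp7 (-0.22 ± 0.066) and Stc2 (0.25 ± 0.13), and to the receptor phosphatase Ptprf (0.18 ± 0.046) and the PI3K regulatory subunit Pik3r1 (-0.12 ± 0.041). Of 35 Akt, mTOR and effector genes, Ddit4, an inhibitor of mTOR complex 1, was called lower in HT fluoxetine (-0.37 ± 0.059) and HT lithium (-0.35 ± 0.062) than in WT vehicle.

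Of 23 FoxO factors and FoxO-linked genes, none was called between HT and WT vehicle, and 16 were lower, with a median of -0.055 (log2) beside 0.0001 over all genes. In HT lithium against WT, Foxo6, a FoxO factor of the brain, was higher (0.49 ± 0.12) and Txnip, an inhibitor of glucose uptake, lower (-0.32 ± 0.073). Of 21 cAMP and CREB responsive genes, none was called between HT and WT vehicle, where 17 were higher with a median of 0.068, against 50.1% of all genes tested higher and a median of 0.0001, led by the clock gene Per1 (0.19 ± 0.052) and the neuropeptide precursor Vgf (0.20 ± 0.060). In HT lithium against WT, 9 of the 21 were higher and 12 lower (median -0.0073), and the neurotrophin gene Bdnf (0.31 ± 0.061) and Vgf (0.26 ± 0.058) were called higher and Fos (-0.39 ± 0.10), an immediate early gene, lower.

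Of 22 glucocorticoid responsive genes, Cebpd was called lower in HT than in WT vehicle (-0.51 ± 0.11), and Cebpd and Ddit4 were called lower in HT fluoxetine. In HT lithium against WT, Zbtb16 (0.59 ± 0.091) and Fkbp5 (0.46 ± 0.10), a cochaperone of the glucocorticoid receptor, were called higher and Cebpd (-0.68 ± 0.10) and Ddit4 lower. Zbtb16 and Map3k6 were the 2 genes of this list called for sex, both higher in females (0.44 ± 0.066, adjusted p = 0.000485, and 0.46 ± 0.091, adjusted p = 0.0218, limma). No gene of the 6 lists was called for fluoxetine or for lithium within HT mice, where 0% of all genes were called. Nothing about the lists is therefore read from these 2 comparisons.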

How the data were processed

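Bulk RNA-seq of 29 libraries was analysed from a table of normalised values per Ensembl gene. Per the submitters' processing notes, Salmon 0.11.2, R 3.6.0, DESeq2 1.19.11 and GRCm38 were used; their roles, the annotation and the strand setting of the counting are not given in the sources used here. The deposited signal values were whole reads divided by 1 factor per library: in every library 100.0% of values came out whole (tolerance 0.0001), and the recovered reads gave the depths and the edgeR and DESeq2 counts. Of 18240 genes, 18227 matched a symbol. The 17881 genes that reached 10 in 3 or more libraries were fitted as log2(value + 1) with limma 3.58.1 (R 4.3.3, intensity trend, 8 groups of genotype, treatment and sex, 21 residual degrees of freedom), with two-sided p-values adjusted by Benjamini-Hochberg over all genes tested. Fold changes are on the log2(value + 1) scale. edgeR 4.0.16 (quasi-likelihood test) and DESeq2 1.42.0 on recovered reads were alternatives: between HT lithium and WT vehicle limma called 238 genes higher and 102 lower, edgeR 211 and 93, and DESeq2 396 and 177. Marker relations were tested on deviations from the 8 group means by 100000 permutations within groups, two-sided. Scripts were tested on simulated data. Promoters came from RefSeq (GRCm38.p6) and gene positions from GENCODE on GRCm38. All members are named; from each pathway list up to 4 called genes per comparison with a mean of at least 50, or 2 with the smallest p where none was called. The members, lists and motifs were chosen with earlier results of these data known. The genes most like Igf2 on deviations from the group means are not reported here.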

Additional observations from a re-analysis of the deposited data

How the results depend on the processing

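Of the 10 genes, the number called was recomputed under each alternative. Between HT and WT vehicle it fell from 1 to 0 with only the compared groups in the fit and with sex as an additive term, and ran from 0 to 1 when single libraries were left out. Between HT fluoxetine and WT it fell from 1 to 0 with only the compared groups, and ran from 0 to 1 over single libraries. Between HT lithium and WT it ran from 1 to 3 over single libraries. For sex it fell from 1 to 0 without the intensity trend, and ran from 0 to 1 over single libraries. Alternatives chosen after seeing the data gave further changes: without the 8 libraries with high striatal or olfactory markers the numbers were 0 for HT against WT vehicle, 0 for HT fluoxetine and 1 for HT lithium against WT; without these and the 2 lithium males with low olfactory markers they were 0, 0 and 1, and 0 for sex; with those marker means as covariates it was 1 for HT lithium against WT; and over the HT arms only it was 0 for sex. Fewer libraries enter several of these fits; apart from that, the cause was not tested. Irs2 was higher than in WT in all 31 alternatives for HT lithium and called in each, and in all 30 for HT vehicle, called in 19. With the replicate number as a replicate block the numbers were 1, 1, 3 and 1 for HT vehicle, HT fluoxetine and HT lithium against WT and for sex, the added gene being Igf2. The deviations had a mean correlation of -0.009 over 94 pairs with the same number and 0.003 over 273 pairs with different numbers. Of 29 libraries, 11 correlated best with their own number, but no chance level was worked out, so nothing is read from this count. Numbers came from the sample titles, and the library names number the HT vehicle females otherwise. The labels used here do not say what a number stands for, so whether same-numbered libraries share a batch or litter cannot be told. Over all genes DESeq2 called more than limma: 148 higher and 71 lower against 29 and 8 between HT and WT vehicle, 73 and 21 against 26 and 8 for HT fluoxetine, 396 and 177 against 238 and 102 for HT lithium, 84 and 12 against 37 and 9 for sex, and 58 and 142 against 1 and 18 for sex with fluoxetine. Genes that did not reach 10 in 3 libraries were not tested.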
